A study of Homo sapiens with 14 samples.

Results

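The YAP and TEAD target genes followed here are 10 genes taken by symbol: the coactivator genes YAP1 and WWTR1, the DNA-binding partner gene TEAD1, the genes AMOTL2, AJUBA and LATS2 of the Hippo pathway, and the target genes CCN1, CCN2, ANKRD1 and AXL. The older symbols CYR61 and CTGF were read as CCN1 and CCN2. All 10 were found, out of 24638 genes listed in all 3 kinds of expression table of the series. IMR90, primary fibroblasts from human fetal lung, gave the poly(A) RNA of 14 samples, which fall into 7 groups of 2. Isolates I79 and I10 of IMR90 were each sampled as young, proliferating cells and as old cells passaged into replicative senescence. The labels name no treatment for them. Isolate I79 was also sampled after exposure to inflachromene (ICM), a small molecule known to bind HMGB1 and HMGB2, chromatin proteins of the high mobility group, with no dose or time stated in the sample labels. The remaining groups were WT cells and cells in which HMGB2 was depleted with siRNA (HMGB2 KD), for which the labels name no isolate.

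In the Hippo pathway, a kinase cascade that ends in LATS1 and LATS2 phosphorylates YAP (from YAP1) and TAZ (from WWTR1) and so keeps them out of the nucleus. Unphosphorylated YAP and TAZ enter the nucleus and bind TEAD proteins, which carry them to promoters and enhancers of genes for matrix-associated signals, adhesion and growth. In fibroblasts, the pathway is known for its response to matrix stiffness, cell spreading and contractile tension, and the activity of YAP and TAZ is set largely by phosphorylation and location, which RNA levels do not measure.

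Promoter sequence is shown for 4 members because it holds the letters that TEAD proteins are known to bind. Sequences are from RefSeq on GRCh38.p14, each covering the 250 bases before an annotated start, read 5' to 3' on the strand of the gene, with capitals marking GGAATG or its reverse complement. They are the only coordinates given on that build. CCN2 lies at chr6:131951373-131951622 (minus strand), ANKRD1 at chr10:90921088-90921337 (minus strand), the second start of AMOTL2 at chr3:134374448-134374697 (minus strand) and YAP1 at chr11:102110197-102110446 (plus strand).
CCN2: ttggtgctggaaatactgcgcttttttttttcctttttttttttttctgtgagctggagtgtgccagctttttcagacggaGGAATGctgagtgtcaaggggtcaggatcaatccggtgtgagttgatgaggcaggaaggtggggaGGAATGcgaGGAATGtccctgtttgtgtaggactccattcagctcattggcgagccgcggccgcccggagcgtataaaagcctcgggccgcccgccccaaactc
ANKRD1: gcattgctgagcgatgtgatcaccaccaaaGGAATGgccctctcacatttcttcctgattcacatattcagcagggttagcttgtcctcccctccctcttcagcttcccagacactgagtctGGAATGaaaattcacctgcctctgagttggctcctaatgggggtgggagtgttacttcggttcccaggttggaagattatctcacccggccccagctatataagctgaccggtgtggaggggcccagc
AMOTL2: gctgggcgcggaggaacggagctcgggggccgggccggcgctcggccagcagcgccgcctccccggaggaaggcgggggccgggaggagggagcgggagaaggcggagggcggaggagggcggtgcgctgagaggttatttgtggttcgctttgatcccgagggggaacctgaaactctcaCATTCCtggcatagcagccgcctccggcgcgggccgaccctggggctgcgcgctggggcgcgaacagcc
YAP1: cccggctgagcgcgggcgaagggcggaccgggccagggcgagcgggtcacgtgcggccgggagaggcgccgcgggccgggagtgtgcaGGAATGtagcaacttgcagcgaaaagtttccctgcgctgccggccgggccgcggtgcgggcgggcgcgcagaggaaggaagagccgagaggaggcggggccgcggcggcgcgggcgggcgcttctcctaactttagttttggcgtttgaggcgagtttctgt

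GGAATG was searched on both strands over 300 bases around each start, from 250 before to 50 after it. It occurred in 14.0% of 35116 RefSeq promoters of this length. Of the 10 genes, 8 had a promoter entry, with 12 starts in all, and 7 of the 12 starts held at least 1 match. These starts belonged to 7 of the 8 genes, a count per gene that the share of all promoters does not match. CCN2 held 3 matches, whose first bases lay at -169, -104 and -95 from the start, and 0.128% of all promoters held 3 or more. ANKRD1 held 2, at -220 and -128, and 1.37% of all promoters held 2 or more. YAP1 itself held 1, at -162. AMOTL2, AJUBA and AXL each held 1 at the second of their starts, at -69, -59 and -212. In LATS2 the match fell at 10 bases past the start, and neither start of WWTR1 had one. The AP-1 motif TGANTCA, searched on both strands, occurred in 7.71% of all promoters and in 1 member, ANKRD1, at -195, apart from both GGAATG matches there. These are matches of letters and not measured binding.

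The libraries differed in depth and in how reads were counted. The WT and HMGB2 KD tables held between 33561766 and 41168932 counts per library, the tables of old and young cells from 14991385 to 20632959 estimated counts, and those of ICM a total of 13290131 and of 10971132 reads. HMGB2, the siRNA target, had 27.1 and 27.4 CPM (counts scaled to a common library size) in the WT libraries, and 3.22 and 3.64 CPM remained after knockdown, a log2 difference of -2.99 (SE 0.165, n = 2 per group, edgeR adjusted p = 8.28e-07). All 9 fibroblast markers examined exceeded 1 CPM in every library. The epithelial markers KRT5, SFTPC and SCGB1A1, the endothelial marker CDH5 and the T cell marker CD3E were at 0 in every library. The epithelial marker EPCAM was low but present, at 0.576 and 0.271 CPM in young and old I79 and 0.469 and 0.332 CPM in young and old I10. All 5 epithelial markers together reached at most 0.752 CPM in a library. CDH1 (epithelial), PECAM1 (endothelial) and PTPRC (blood cell) were each above 0 in some libraries and below 1 CPM in the means and columns read. The endothelial marker VWF was low but present, in I79 at 0.448 CPM in young and 2.82 CPM in old cells and in I10 at 0.365 and 2.49 CPM, with a log2 difference of 2.69 (edgeR adjusted p = 0.0131), and its log2 ratio of ICM to I79 young was 2.43. Of the 3 blood cell markers, CD68, which fibroblast lysosomes also hold, was the 1 above 1 CPM in every library, and with senescence it rose in I79 (21.4 to 158 CPM) and I10 (23.2 to 84.5 CPM) (edgeR adjusted p = 0.00659). The part of VWF and CD68 in the results was not tested. In bulk RNA, a smaller share of cells that express a gene and less RNA per cell cannot be told apart.

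Per transcript length, the 10 genes spanned a wide range of levels in the old and young tables. The deposited TPM, a level per transcript length, put CCN2, which encodes a matricellular signalling protein, first in all 4 columns, with 656 TPM in young and 805 TPM in old I79, and 551 TPM in young and 1023 TPM in old I10. CCN1, its close relative, was second in each column, followed by the receptor tyrosine kinase gene AXL. ANKRD1, which encodes a nuclear ankyrin repeat protein, was last in each, with 0.293 TPM in young and 5.38 TPM in old I79, and 0.433 TPM in young and 6.89 TPM in old I10. The middle of the order was tight: in I10 young, YAP1 and TEAD1 stood at 132 TPM and 133 TPM, and AMOTL2 and WWTR1 at 67.1 and 58.0 TPM. Each column is a single value of the authors, so neighbours in this order have no replicate spread against which to be told apart. The level of CCN2 was 4.02 times that of CCN1 in I79 young and 3.12 times in I10 young, against 1.98 and 1.75 times in the old columns of I79 and I10.

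Old against young cells asks which genes move as IMR90 reach replicative senescence, and here the 2 isolates serve as the replicates. All 7 genes other than YAP1, WWTR1 and TEAD1 were higher in both old columns than in both young ones, which held for 36.5% of the 15115 genes tested. WWTR1 and TEAD1 were lower in both old columns, as 37.5% of all genes were, and YAP1 overlapped in CPM. CCN1, ANKRD1, AJUBA and LATS2 rose past the thresholds that the study states in its methods, an adjusted p under 0.01 with a log2 change over 0.6, so 4 of 10 were called higher against 5.75% of all genes. The median log2 difference was 0.65 over the 10 genes and -0.01 over all genes tested. No member was called lower, against 3.82% of all genes. At an adjusted p under 0.05 with the same fold, the same 4 were called higher, against 13.5% of all genes, and WWTR1 and TEAD1 were called lower, against 12.1% of all genes.

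Among the coactivators and TEAD1, which rest at the end of the kinase cascade, YAP1 was at 261 CPM in I79 young and 235 CPM in I79 old, and at 289 CPM in I10 young and 278 CPM in I10 old. In CPM the 2 ages overlapped, and the log2 difference was -0.10 (SE 0.11, edgeR adjusted p = 0.511). The deposited TPM of YAP1 did not overlap, at 131 and 91.2 in young and old I79 and 132 and 114 in young and old I10. With plain library totals the log2 difference of YAP1 was -0.31 (edgeR adjusted p = 0.0644). WWTR1 was at 129 and 69.4 CPM in young and old I79 and at 136 and 94.3 CPM in young and old I10. Both old columns were below both young ones, with a log2 difference of -0.71 (SE 0.128, edgeR adjusted p = 0.0185), which was called at 0.05 but not at 0.01. TEAD1 was at 470 and 282 CPM in young and old I79, and at 496 and 343 CPM in young and old I10. It too was lower in both old columns, by a log2 difference of -0.63 (SE 0.125, edgeR adjusted p = 0.0229), called likewise at 0.05 alone. On the TPM scale, the level of YAP1 was 2.14 and 2.28 times that of WWTR1 in young I79 and I10, and 3.07 and 3.03 times in old I79 and I10. The summed level of the 4 TEAD genes was 260 and 257 TPM in the young columns of I79 and I10 and 125 and 141 TPM in the old ones. TEAD1 made up 49.1% and 51.7% of that sum in young I79 and I10, and 52.5% and 57.7% in old I79 and I10. TEAD2 was at 78.5 and 18.2 TPM in young and old I79 and 76.0 and 19.9 TPM in young and old I10. TEAD3 was at 39.2 and 34.7 TPM in young and old I79 and 33.4 and 31.4 TPM in young and old I10. The TPM is not scaled as the CPM are, and with plain library totals the median log2 difference of all genes was -0.22.

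LATS2, the kinase gene that is also a YAP target, went from 49.3 CPM in young to 98.9 CPM in old I79, and in I10 from 49.9 to 146 CPM. The young columns lay within 1 CPM of each other and both old ones lay well above them, with a log2 difference of 1.28 (SE 0.159, edgeR adjusted p = 0.00808). AJUBA, which encodes a LIM protein that restrains LATS kinases, was at 55.4 and 96.2 CPM in young and old I79 and at 54.6 and 105 CPM in young and old I10, a log2 difference of 0.87 (SE 0.102, edgeR adjusted p = 0.00727). AMOTL2, which encodes an angiomotin that binds YAP, was at 145 and 211 CPM in I79 and at 164 and 231 CPM in I10. It did not overlap between ages, but the log2 difference of 0.52 (SE 0.103, edgeR adjusted p = 0.0227) met neither threshold.

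The largest difference among the 10 was that of ANKRD1, with 5 estimated counts in young and 121 in old I79, and 9 in young and 159 in old I10. Scaled, these are 0.320 and 6.57 CPM for I79, and 0.469 and 8.79 CPM for I10. The gene was close to silent in both young columns and low but well counted in both old ones. WT cells, counted differently, were not near silent. Over the genes shared by all tables and without TMM scaling, they had 8.75 and 10.1 CPM, against 0.365 CPM in young and 6.66 CPM in old I79. The cells and the way of counting cannot be told apart there. The old level was 20.5 times the young one in I79 and 18.7 times in I10, and the fitted log2 difference was 4.26 (SE 0.317, edgeR adjusted p = 0.00412). With so few young counts, the exact 95% interval of the log2 difference ran from 3.10 to 6.01 in I79 and from 3.27 to 5.38 in I10, for counting error only.

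CCN1, which encodes a secreted integrin ligand, went from 207 CPM in young to 569 CPM in old I79, and in I10 from 219 to 854 CPM. Both old columns stood apart, at 2.75 times the young level in I79 and 3.91 times in I10, with a log2 difference of 1.71 (SE 0.171, edgeR adjusted p = 0.0057). CCN2 was at 871 and 1177 CPM in young and old I79 and at 715 and 1565 CPM in young and old I10. Its log2 difference was 0.43 in I79 and 1.13 in I10, and the pooled value of 0.78 (SE 0.215, edgeR adjusted p = 0.0504) was not called. AXL was at 350 and 464 CPM in young and old I79 and at 420 and 635 CPM in young and old I10, a log2 difference of 0.50 (SE 0.127, edgeR adjusted p = 0.0412). For both genes the 2 ages did not overlap.

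**Figure D1:**
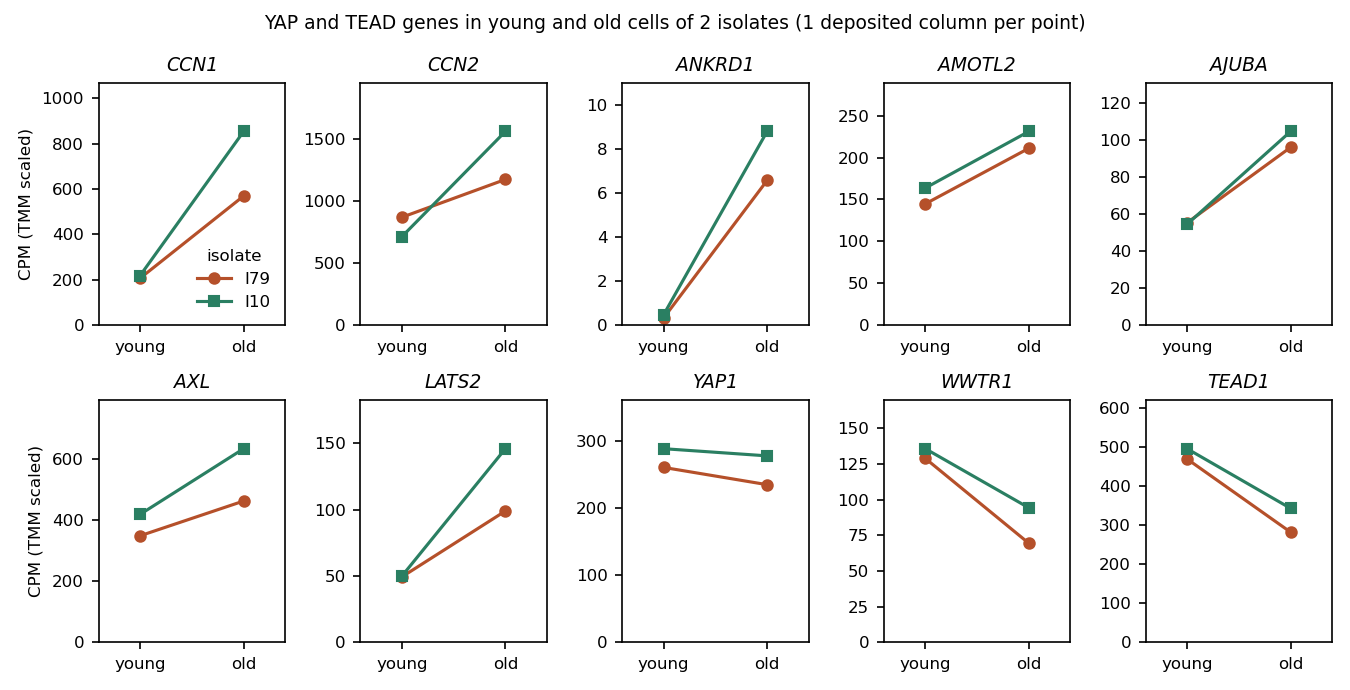
Each panel plots CPM (TMM scaled, linear axis from 0) of 1 gene in the young and old column of isolates I79 (circles) and I10 (squares), with a line joining the columns of an isolate and no error bars, since each is 1 deposited column. Lines climb in both isolates for 7 genes, run nearly level for YAP1 and descend for WWTR1 and TEAD1, and ANKRD1 starts from 0.320 and 0.469 CPM.

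The log2 difference had the same sign in both isolates for all 10 genes, and its size varied. For YAP1 it was -0.15 in I79 and -0.06 in I10, and the counting interval of the latter, -0.11 to 0.00, reached 0. LATS2 differed by 1.00 on the log2 scale in I79 and by 1.55 in I10, and CCN1 by 1.46 and 1.97. ANKRD1 differed by 3.95 in I79 and 3.94 in I10, and AMOTL2 by 0.54 and 0.50. WWTR1 differed by -0.89 in I79 and -0.53 in I10. Whether isolates differ was not tested, since each age has a single column per isolate.

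At the transcript level, the most read transcript of each of the 10 genes was the same in all 4 columns. CCN2 and ANKRD1 had a single listed transcript, and CCN1, LATS2 and TEAD1 each had 1 transcript above 5% of their reads. YAP1 was the most divided, with 5 of 11 transcripts above 5%. Its leading transcript YAP1-201, with 504 codons, took 39.2% and 50.0% of YAP1 reads in young and old I79, and 38.2% and 46.7% in young and old I10. YAP1-209, with 492 codons, took 24.8% and 23.4% in young and old I79 and 31.2% and 20.0% in young and old I10. The share of YAP1-201 was thus higher in the old column of both isolates, while the summed YAP1 reads, as CPM, overlapped between ages. For AXL, the shorter AXL-202, with 885 codons against 894 in AXL-201, took 17.4% and 23.3% in young and old I79 and 14.8% and 20.6% in young and old I10. These shares carry no test, and reads common to several transcripts were divided by estimation.

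**Figure D2:**
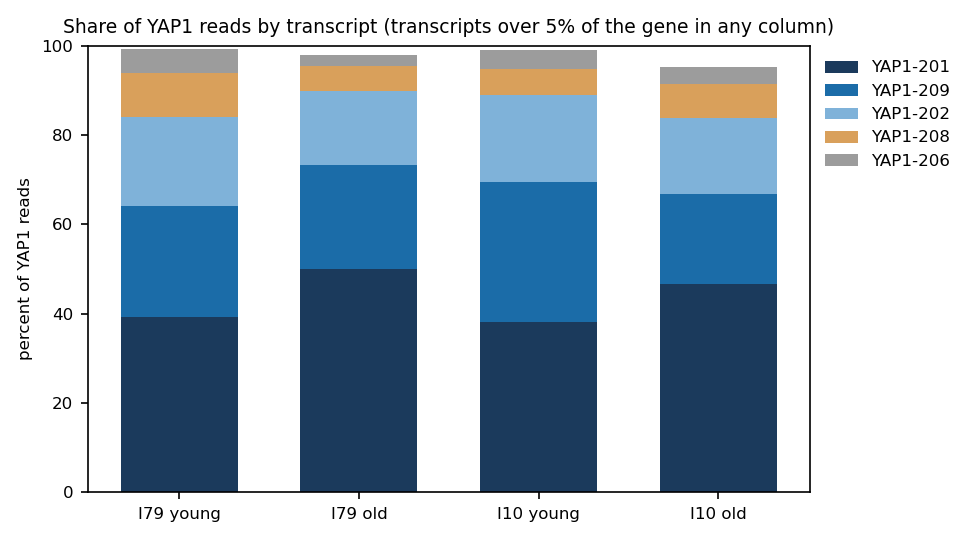
Stacked bars give the percent of YAP1 reads assigned to each of the 5 transcripts with at least 5% in any of the 4 columns, 1 bar per column, with no error bars. The lowest segment, YAP1-201, is taller in each old column than in the young column of the same isolate.

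The comparison of HMGB2 KD with WT asks what differs after siRNA knockdown of HMGB2. The sample titles call the controls WT and name no control siRNA. An effect of siRNA treatment itself and one of HMGB2 loss therefore cannot be told apart. Here 9 of the 10 genes were higher in both HMGB2 KD libraries than in both WT libraries, which held for 27.4% of the 15338 genes tested. The exception was YAP1, lower in both. The shifts were small, with a median log2 difference of 0.42 over the 10 genes against 0.00 over all genes, and 1 of 10, ANKRD1, was called higher, against 2.86% of all genes. None was called lower, against 2.34% of all genes. At an adjusted p under 0.05 with the same fold, 3 were called higher (ANKRD1, AXL and AMOTL2), against 4.3% of all genes. An unadjusted p under 0.05 was found for 8 of the 10 and for 23.9% of all genes.

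ANKRD1 had 8.06 and 9.35 CPM in the WT libraries, against 16.1 and 14.85 CPM after HMGB2 knockdown, with no overlap. It rose by a log2 difference of 0.83 (SE 0.164, n = 2 per group, edgeR adjusted p = 0.00503). This call was lost without WT replicate 1 (log2 difference 0.72, edgeR adjusted p = 0.0604) and without either HMGB2 KD replicate (0.76 with adjusted p = 0.0175, and 0.89 with adjusted p = 0.0159). AXL had 192 and 238 CPM in the WT libraries, against 308 and 412 CPM after HMGB2 knockdown. The group means were 215 ± 32.5 and 360.0 ± 73.2 CPM (SD, n = 2), a log2 difference of 0.74 (SE 0.166, edgeR adjusted p = 0.0104). AMOTL2 had 129 and 145 CPM in the WT libraries, against 193 and 232 CPM after HMGB2 knockdown, a log2 difference of 0.63 (SE 0.142, edgeR adjusted p = 0.0106). Both genes lay just outside the threshold, and the libraries left out moved them either way. Without HMGB2 KD replicate 1 both were called, AXL at 0.93 and AMOTL2 at 0.75 on the log2 scale, and AXL also without WT replicate 2, at 0.90. Without HMGB2 KD replicate 2 both were under the fold, AXL at 0.52 (edgeR adjusted p = 0.0844) and AMOTL2 at 0.49 (edgeR adjusted p = 0.0639), as they were without WT replicate 1, at 0.59 and 0.55.

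LATS2 had 63.3 and 72.8 CPM in the WT libraries, against 88.1 and 104 CPM after HMGB2 knockdown, a log2 difference of 0.49 (SE 0.135, edgeR adjusted p = 0.0297). AJUBA had 50.3 and 54.8 CPM in the WT libraries, against 66.8 and 74.6 CPM after HMGB2 knockdown, a log2 difference of 0.43 (SE 0.128, edgeR adjusted p = 0.0467). Neither gene met either threshold, though the groups did not overlap. CCN1 had 342 and 401 CPM in the WT libraries, against 464 and 528 CPM after HMGB2 knockdown, a log2 difference of 0.42 (SE 0.147, edgeR adjusted p = 0.0909). CCN2, the most abundant of the 10 by CPM, had 1018 and 1035 CPM in the WT libraries, against 1357 and 1328 CPM after HMGB2 knockdown, a log2 difference of 0.39 (SE 0.141, edgeR adjusted p = 0.0999). Its libraries were tight, at 1026 ± 12.5 and 1342 ± 20.7 CPM (SD, n = 2), and the SE comes from the spread shared across genes.

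The differences of the 3 upstream members were the smallest of the 10. YAP1 had 283 and 302 CPM in the WT libraries, and both HMGB2 KD libraries had 278 CPM, a log2 difference of -0.08 (SE 0.134, edgeR adjusted p = 0.80). WWTR1 had 246 and 239 CPM in the WT libraries, against 325 and 280 CPM after HMGB2 knockdown, a log2 difference of 0.32 (SE 0.138, edgeR adjusted p = 0.17). TEAD1 had 162 and 209 CPM in the WT libraries, against 220 and 237 CPM after HMGB2 knockdown, a log2 difference of 0.30 (SE 0.148, edgeR adjusted p = 0.245). WWTR1 and TEAD1 were thus above WT here and below young cells in the old columns, and in neither comparison was the difference called at 0.01.

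**Figure D3:**
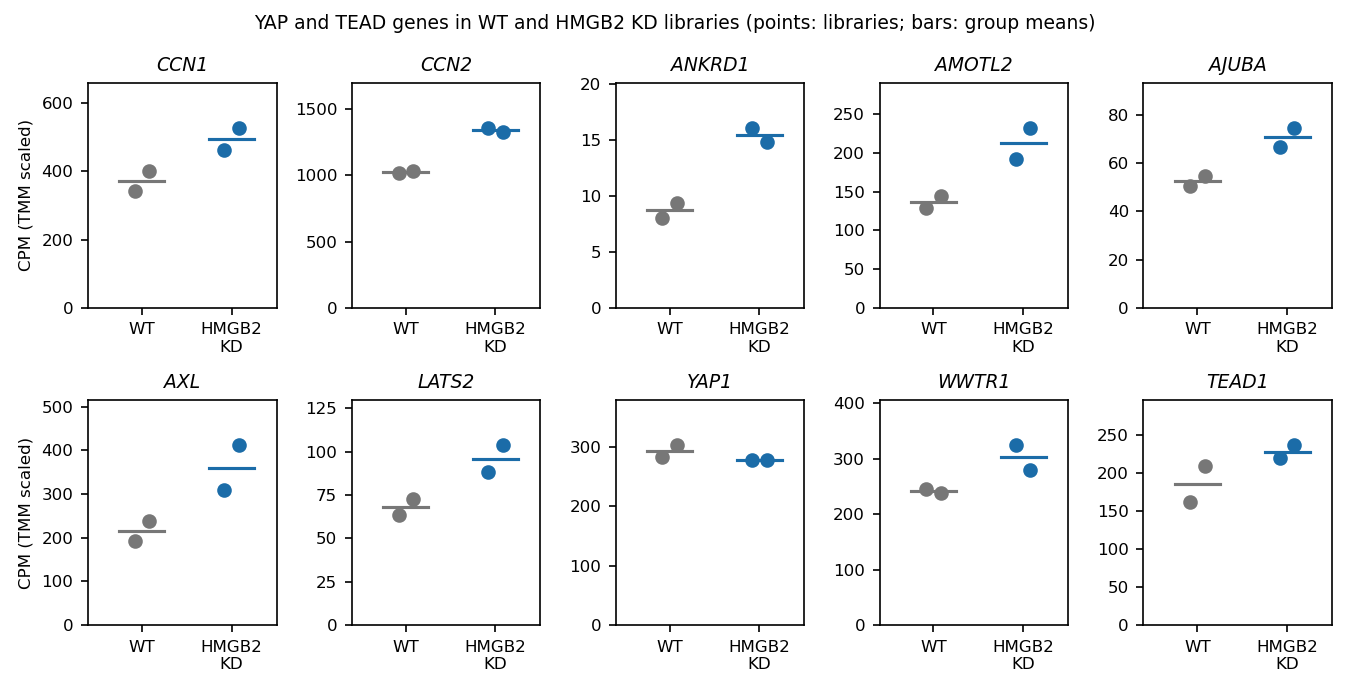
Each panel plots CPM (TMM scaled, linear axis from 0) of 1 gene, with a point per library and a bar at the mean of the 2 WT (grey) or 2 HMGB2 KD (blue) libraries. The HMGB2 KD points lie above the WT points for 9 genes and below them for YAP1.

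The ICM libraries were set beside the I79 young column, as a description with no test, since the tables were counted in different ways. CPM here is over the 24638 shared genes without TMM scaling, so it differs from the CPM above. Of the 10 genes, 4 were over 0.6 on the log2 scale (CCN1, CCN2, ANKRD1 and LATS2), as 31.2% of the 14025 genes compared were, and 4 were under -0.6 (AXL, YAP1, WWTR1 and TEAD1), as 29.4% were. Set against I79 young, WT cells, not exposed to ICM and also counted differently, had 3 of the 10 genes over 0.6 (CCN1, ANKRD1 and WWTR1), as 18.9% of all genes were. In WT cells AXL (-0.78) and TEAD1 (-1.42) were under -0.6, as they were with ICM. The share of all genes under -0.6 was not counted for WT. The treatment and the way of counting cannot be told apart in these ratios.

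CCN1 was at 593 and 570 CPM in the ICM libraries and 236 CPM in I79 young, a log2 ratio of 1.30 (SD 0.041 between the ICM libraries, n = 2). CCN2 was at 1888 and 1820 CPM against 993 CPM, a log2 ratio of 0.90, and LATS2 at 104 and 109 CPM against 56.2 CPM, a log2 ratio of 0.92. These 3 genes were also above the WT libraries on this scale, with log2 ratios of 0.53, 0.74 and 0.53. ANKRD1 rested on 32 and 33 reads in the ICM libraries, or 2.49 and 3.11 CPM, against 0.365 CPM in I79 young and 8.75 and 10.1 CPM in the WT libraries. Its log2 ratio was 2.63 against I79 young (SD 0.219 between the ICM libraries, n = 2) and -1.72 against WT.

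YAP1 was at 150 and 130 CPM in the ICM libraries against 297 CPM in I79 young and 307 and 328 CPM in WT, so its log2 ratio was -1.09 against I79 young and -1.19 against WT. WWTR1 was at 85.1 and 87.9 CPM against 147 CPM in I79 young and 266 and 259 CPM in WT, with log2 ratios of -0.76 and -1.60. Both coactivator genes were thus lower than either reference. TEAD1, at 310 and 275 CPM, had a log2 ratio of -0.88 against I79 young and 0.55 against WT. AXL, at 222 and 212 CPM against 399 CPM, had a log2 ratio of -0.88, and WT stood at -0.78 on the same scale. AMOTL2 and AJUBA had log2 ratios of 0.03 and -0.19.

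**Figure D4:**
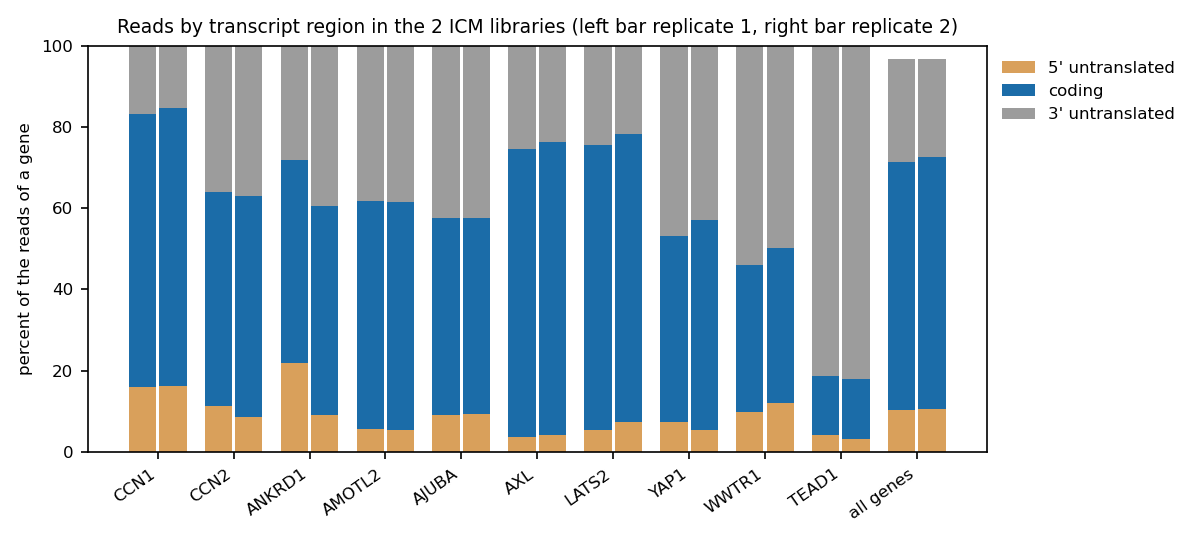
Stacked bars give, for each gene and for all genes together, the percent of reads in the 5' untranslated, coding and 3' untranslated regions in ICM replicates 1 (left) and 2 (right), with noncoding classes left out. TEAD1 stands apart, with 81.2% and 82.1% of reads in the 3' untranslated region against 25.3% and 24.2% over all genes.

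The region counts of the ICM tables show where the reads of each gene fell. Over all genes, 61.1% and 61.9% of reads lay in coding sequence. LATS2, with 70.1% and 70.8%, AXL, with 71.0% and 72.3%, and CCN1, with 67.2% and 68.4%, were above that. All other members were below. They were AMOTL2 (56.1% and 56.2%), CCN2 (52.5% and 54.3%), ANKRD1 (50.0% and 51.5%), AJUBA (48.5% and 48.2%), YAP1 (45.9% and 51.8%), WWTR1 (36.3% and 38.1%) and TEAD1 (14.5% and 14.8%). Leaving untranslated reads out of the ICM libraries lowers the log2 ratios of AJUBA, YAP1, WWTR1 and TEAD1, to -0.61, -1.50, -1.56 and -3.02. The I79 young column, not split by region, keeps its untranslated reads. AJUBA then passes the fold, so that 9 of the 10 do in place of 8. Over all genes, 8875 do in place of 8502, of 14025 compared. The ratios of CCN2, ANKRD1 and AMOTL2 are then also lower, at 0.63, 2.28 and -0.18, and those of CCN1, LATS2 and AXL are higher, at 1.37, 1.04 and -0.73. The most read transcript in old and young cells had 990 coding bases of 8477 in TEAD1 and 1200 of 5030 in WWTR1. It had 3264 of 5511 in LATS2 and 2682 of 4737 in AXL. The part of these lengths in the region shares was not tested.

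On the scale of shared genes, old and ICM-treated I79 cells were both set against the same I79 young column. The old column was counted as the young one was, and the ICM libraries were not, so the 2 kinds of ratio are not alike. WT cells, also counted differently, stood at 0.77 for CCN1, 0.39 for LATS2 and -1.42 for TEAD1 against that column. CCN1 was at log2 ratios of 1.29 in old and 1.30 in ICM-treated cells, LATS2 at 0.84 and 0.92, and TEAD1 at -0.90 and -0.88. CCN2 was at 0.27 and 0.90, and YAP1 at -0.32 and -1.09. For AXL the values had opposite signs, 0.24 in old and -0.88 in ICM-treated cells, and so they did for AJUBA, at 0.63 and -0.19. WT cells stood at -0.78 for AXL, -0.15 for AJUBA, 0.16 for CCN2 and 0.09 for YAP1 against that column. Set against WT in place of I79 young, ICM was at -0.10 for AXL and -0.05 for AJUBA. The signs for AXL and AJUBA are thus also those of WT cells, which had no ICM.

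**Figure D5:**
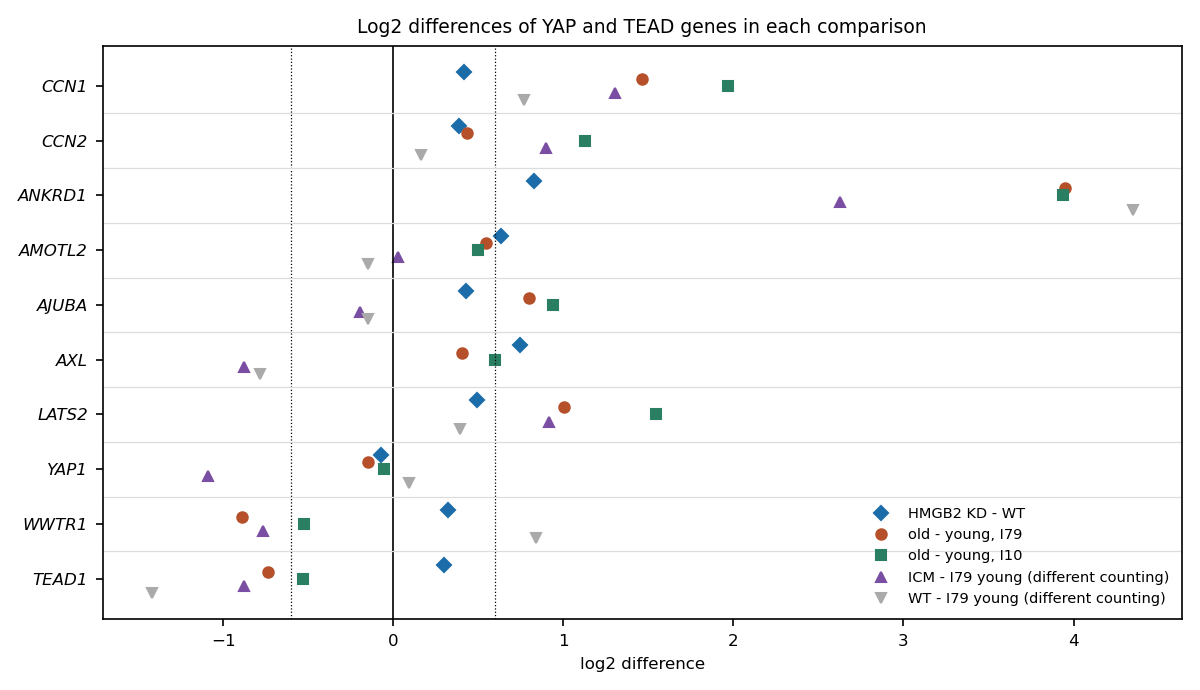
Points give log2 differences of each gene (horizontal axis) for HMGB2 KD minus WT, old minus young in I79 and in I10, ICM minus I79 young and WT minus I79 young, with dotted lines at -0.6 and 0.6, no error bars, and the last 2 set across tables counted in different ways. CCN1, CCN2, LATS2 and ANKRD1 lie right of 0 in every comparison drawn, and the WT points mark how far WT cells already lie from I79 young.

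Other genes of the pathway were read from lists of the same fits. Of 16 kinases and upstream regulators tested in old against young cells, 1 rose, WTIP, a LIM protein gene related to AJUBA, in I79 (17.5 to 33.9 CPM) and in I10 (18.1 to 34.4 CPM), with a log2 difference of 0.94 (edgeR adjusted p = 0.00893). Another, AMOT, an angiomotin gene, fell in I79 (23.4 to 9.11 CPM) and in I10 (36.2 to 12.3 CPM), with a log2 difference of -1.46 (edgeR adjusted p = 0.00559). The median of the list was 0.32. LATS1, the partner kinase of LATS2, was at 33.8 and 34.8 CPM in young and old I79 and 36.1 and 33.0 CPM in young and old I10. It was not called, with a log2 difference of -0.04 (edgeR adjusted p = 0.799). Its deposited TPM, not scaled as the CPM are, was 8.36 and 7.57 in young and old I79 and 9.23 and 6.60 in young and old I10. In HMGB2 KD, 1 of the 16 rose, FRMD6, a scaffold gene of the pathway, with 158 and 175 CPM in the WT libraries against 274 and 289 CPM after HMGB2 knockdown (log2 difference 0.76, edgeR adjusted p = 0.0024), and the median was 0.05. The FRMD6 call was lost without WT replicate 1 and without HMGB2 KD replicate 2.

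Of the other TEADs and cofactors, 6 could be tested. In old cells TEAD2 fell, in I79 (92.4 to 23.1 CPM) and in I10 (84.8 to 26.0 CPM), with a log2 difference of -1.85 (edgeR adjusted p = 0.00379). VGLL3, a cofactor that binds TEADs, rose in I79 (79.1 to 154 CPM) and in I10 (79.8 to 191 CPM), with a log2 difference of 1.11 (edgeR adjusted p = 0.00639). In HMGB2 KD, TEAD4 and TEAD3 rose by log2 differences of 0.82 and 0.70 (edgeR adjusted p = 0.00515 and 0.00893), TEAD4 from 8.55 ± 0.405 to 15.1 ± 1.24 CPM and TEAD3 from 48.5 ± 4.44 to 78.6 ± 16.6 CPM (SD, n = 2). The call of TEAD4 was lost without any 1 of the 4 libraries, and that of TEAD3 without WT replicate 1 or HMGB2 KD replicate 2. List medians were -0.01 in old cells and 0.26 in HMGB2 KD.

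Of 21 other known YAP and TAZ targets tested, 7 rose and 1 fell in old cells, against 5.75% and 3.82% of all genes. Their median was 1.00 against -0.01 over all genes. IGFBP3, which encodes an IGF carrier, rose by a log2 difference of 4.28 (SE 0.168, edgeR adjusted p = 0.00324). CCN4, a further gene of the CCN family, rose by 2.08 (SE 0.106, edgeR adjusted p = 0.00324). The one that fell, BIRC5, encodes survivin, which cells make as they divide, and stood at 64.1 CPM in young and 9.28 CPM in old I79, and at 70.0 CPM in young and 20.9 CPM in old I10. In HMGB2 KD, 7 of 21 rose and 1 fell, against 2.86% and 2.34% of all genes, with a median of 0.21 against 0.00. Called or not, 11 of the 21 were above 0 and 10 below in HMGB2 KD, against 17 above and 4 below in old cells. Among the 10 below were IGFBP3, at -0.63 (edgeR adjusted p = 0.0106), and CCN4, at -0.12 (edgeR adjusted p = 0.715). EDN1, the endothelin gene, rose by 1.60 and NT5E, which encodes an ectonucleotidase, by 0.88, while DOCK5 fell by 0.90 on the log2 scale (edgeR adjusted p = 0.000317, 0.00111 and 0.000903).

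CCN1 is also known as an immediate early gene and a target of serum response factor (SRF), so 2 further lists were read. Of 12 immediate early genes, ATF3, DUSP1 and FOSL1 rose in old cells, by log2 differences of 2.24, 1.26 and 1.18 (edgeR adjusted p = 0.00446, 0.00426 and 0.0048), and none was called lower. FOS was at -1.36 (edgeR adjusted p = 0.0378), and 5 of the 12 were below 0. In HMGB2 KD, ATF3 rose, at 0.68 (edgeR adjusted p = 0.00445), a call lost without either WT replicate or without HMGB2 KD replicate 2. Of 10 contractile SRF targets, 7 rose in HMGB2 KD, against 2.86% of all genes, with a median of 1.20. They were led by the smooth muscle genes ACTA2 (1.83), CNN1 (1.77) and TAGLN (1.75). In old cells 1 of the 10 rose, LMOD1 (0.87, edgeR adjusted p = 0.00708), with a median of -0.12. Of the 9 fibroblast markers, PDGFRB, COL1A1 and VIM rose in HMGB2 KD by 1.07, 1.00 and 0.78, and COL3A1 fell by 1.18 on the log2 scale, with a median of -0.04. In old cells 1 of the 9, LUM, was called, at 0.92, with a median of 0.45 and 6 of the 9 above 0. The 3 below 0 were PDGFRA at -1.18, COL3A1 at -0.96 and COL1A1 at -0.90 (edgeR adjusted p = 0.0188, 0.0473 and 0.0638). The part of these marker shifts in the results was not tested.

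Over the 3 log2 differences of HMGB2 KD, old I79 and old I10, the genes nearest to CCN1 among 12775 were EFNA3, SOCS2 and IL12A, at distances of 0.064, 0.087 and 0.19 on the log2 scale. Nearest to CCN2 were RUNDC3A-AS1, MITF and DAAM2, at 0.117, 0.124 and 0.129. None of these 6 is among the other genes of the pathway listed above.

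On GRCh37, the build of the sample labels, CCN1 lies at chr1:86046444-86050272 (plus strand), ANKRD1 at chr10:92671853-92680844 (minus strand), LATS2 at chr13:21547175-21635725 (minus strand) and TEAD1 at chr11:12695968-12966284 (plus strand), and no exon of another annotated gene overlaps theirs. Exons of CCN2, AXL, YAP1 and WWTR1 overlap those of noncoding genes on the opposite strand, AMOTL2 those of the pseudogene RPL39P5 and AJUBA those of a second coding gene on its own strand. Whether counting used strand is not given in the sources used here, so reads in the shared stretches may belong to either gene.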

How the data were processed

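Poly(A) RNA of IMR90 samples was sequenced after TruSeq library preparation, and groups were taken from sample titles. The submitters' processing notes name STAR 2.6.0c, featureCounts, DESeq2, deepTools and GRCh37. The WT and HMGB2 KD files deposited by the authors hold raw counts, 1 file per library. Those files end in rows of unassigned reads of the kind htseq-count writes (16.9% to 18.0% of each total, left out of library sizes and tests), so the counter and its use of strand are not settled. For old and young cells the authors deposited estimated counts and TPM per transcript, 1 table per group although titles list 2 replicates, and the tool is not given in the sources used here. Each was treated as a value of the authors with no SD or n. Transcript IDs matched GENCODE v44 lifted to GRCh37 for 97.7% of rows, and sums per gene were rounded to whole numbers. For ICM the authors deposited estimated counts per gene and transcript region, fractional where reads were shared.

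The tests used edgeR 4.0.16 under R 4.3.3 (quasi-likelihood test, TMM, filterByExpr, Benjamini-Hochberg adjustment over all genes tested), with SE taken as the log2 difference over the root of F. Genes were called at an adjusted p under 0.01 and a log2 change over 0.6, as the study states in its methods (its results also name 0.05). This called 797 of 15338 genes in HMGB2 KD (438 higher, 359 lower) and 1446 of 15115 in old cells (869 higher, 577 lower). The old and young fit had isolate as a covariate, with the isolates as replicates and 1 residual degree of freedom before moderation. The labels do not say whether the WT and HMGB2 KD samples came from separate cultures, and p-values there measure the spread between these samples, which may be technical. ICM was compared without a test, as log2 CPM ratios (prior count 2) over shared genes with a mean of at least 5 counts. Intervals are exact binomial at 95% and cover counting error only. The fits were tested on simulated data.

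All 10 members were named. Of the other lists, the called genes with the 3 largest changes in each direction were named, except for 1 gene that is not reported here. LATS1, VWF, FOS, the low cell type markers and the uncalled fibroblast markers were added after their values were seen. So were TEAD2 and TEAD3 in TPM and the HMGB2 KD values of IGFBP3 and CCN4. Members and lists were chosen with earlier results of these data known. Alternatives were scaling, the filter on low counts, DESeq2 1.42.0, 1 factor of unwanted variation (RUVs), the replicate block, length-scaled TPM, the isolate covariate and leaving out each library. The ratio over all shared genes with no minimum count was added after seeing the data.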

Additional observations from a re-analysis of the deposited data

How the results depend on the processing

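Plain library totals moved the median log2 difference of all genes in old against young cells from -0.01 to -0.22, and 3132 genes were then called in place of 1446. Without a filter on low counts 4265 were called, and at an adjusted p under 0.05, 3860. Of the 10 members, 7 were called in old cells without the filter (14.8% of all genes) and 7 with DESeq2 (14.2%), which added CCN2, WWTR1 and TEAD1. AJUBA lost its call with length-scaled TPM (0.91, edgeR adjusted p = 0.0122), and AMOT (-0.92, edgeR adjusted p = 0.0333) with it. Without the isolate covariate, AMOT, BIRC5, CCN4 and FOSL1 lost theirs. The cause was not tested.

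In HMGB2 KD, 797 genes and 1 member were called. This became 3 members without the filter (1175 genes), with DESeq2 (944 genes) and at an adjusted p under 0.05 (1187 genes), and 2 with 1 RUVs factor (1128 genes). Leaving out 1 library gave 0 to 2 members called and 312 to 999 genes called, with 312 genes and 0 members without HMGB2 KD replicate 2 and 0 members without WT replicate 1. In the latter, the lone WT library is assumed to vary like the HMGB2 KD group. Same-numbered WT and HMGB2 KD libraries had deviations from their group means that correlated at 0.124 over 15338 genes. With 2 pairs this does not show that the numbers pair the samples, and the fit with the replicate block called 1243 genes and 3 members. Of 15 other named genes, 7 lost their call without at least 1 library, VIM without WT replicate 1 or either HMGB2 KD replicate, and COL1A1 and PDGFRB without HMGB2 KD replicate 2.

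In the ICM ratios, 8502 genes passed the fold, 5452 of those with a mean of at least 100 counts, since fewer genes were compared. With WT as the control 4 members passed it in place of 8, and 8226 genes in place of 8502. ANKRD1 (-1.72) and TEAD1 (0.55) then changed sign. AMOTL2 was at -0.18 with coding and noncoding reads only, and between -0.033 and 0.084 when 1 ICM library was left out. Depth limits ANKRD1 most, with 5 and 9 counts in the young columns and 32 and 33 reads in the ICM libraries.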
